A study of Mus musculus with 42 samples.

Results

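The transcriptome of cultured mouse granulosa cells exposed to bisphenol S (BPS) was compared with that of cells given vehicle, across all genes measured. The comparison comprised 6 of the 42 RNA-seq libraries of the series, chosen by their labels alone: 3 from granulosa cells exposed to 1 µM BPS and 3 from granulosa cells given vehicle. The study cultured pluripotent, somatic and germ cell types and asked whether they differ in their susceptibility to this endocrine disruptor. In the BPS group, cells received 1 µM BPS dissolved in ethanol for 24 h in sealed flasks of gassed medium, were washed, and were left for 24 h in fresh medium before harvest. In the vehicle group, cells received ethanol alone and were otherwise handled alike. Both groups came from 1 primary culture, made from preantral follicles of about 5 female littermates at postnatal day 20 and divided over 6 flasks, 3 for BPS and 3 for vehicle, in medium with fetal bovine serum. The flasks were therefore replicates of the exposure and not of the animals, and all p-values below measure the spread between flasks.

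Granulosa cells are the somatic cells that surround the oocyte in the ovarian follicle. They nurture the oocyte through gap junctions, secrete inhibins and activins, convert androgens to estrogens, and at ovulation switch on genes of prostaglandin synthesis and of the cumulus matrix. They express both the alpha and the beta estrogen receptor, with the beta form predominant in rodents. BPS is a bisphenol A substitute that can bind estrogen receptors.

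The deposited values were log2 CPM, a count of reads scaled to a fixed library total, from which whole reads could be recovered, and the 6 libraries held 29354492 to 39955477 reads. The libraries did not fall into their labelled groups as a whole. A list of rRNA-type and other structural RNAs, together with Lars2, whose annotated mouse exons hold rRNA-like sequence, took 0.155%, 0.0994% and 0.0682% of the reads of BPS replicates 1, 2 and 3, against 0.834%, 0.113% and 1.13% in vehicle replicates 1, 2 and 3. Vehicle replicates 1 and 3 were thus high, whereas vehicle replicate 2 lay inside the range of the BPS flasks. On the first principal component of the 500 most variable genes, which held 60.8% of their variance, the BPS flasks scored 3.07, 9.39 and 11.2, against -14.8, 7.61 and -16.5 for vehicle replicates 1, 2 and 3. Without the rRNA-type genes the component still held 53.3% and ordered the vehicle flasks the same way. In pairwise comparison of reads, the mean chi-square per gene was 2.35 to 3.46 between BPS flasks and 3.60 between vehicle replicates 1 and 3, but 17.9 and 25.1 between vehicle replicate 2 and the other vehicle flasks. No pair of replicates differed by less than counting noise, so the libraries counted as 3 per group. Counts and the main genes are therefore also given against vehicle replicate 2 alone, a comparison chosen after the data were seen.

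**Figure D1:**
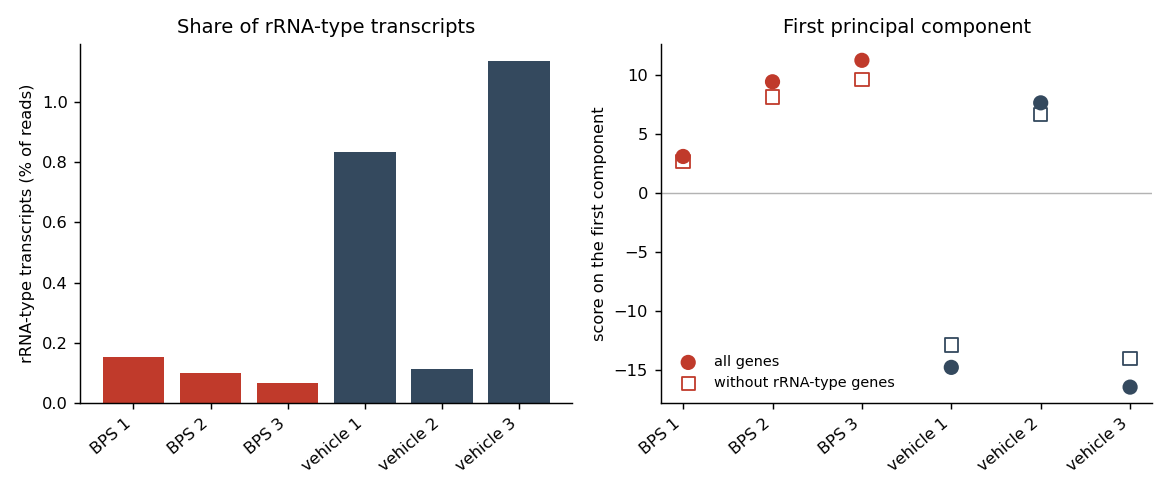
Left, the share of reads taken by rRNA-type transcripts (%) in each of the 3 BPS and 3 vehicle libraries. Right, the score of the same libraries on the first principal component, with all genes (filled) and without rRNA-type genes (open); vehicle replicates 1 and 3 have the 2 highest shares, 0.834% and 1.13%, and the 2 lowest scores, while vehicle replicate 2 sits with the BPS libraries.

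The cells carried many of the transcripts that define granulosa cells. Foxl2, the transcription factor that maintains granulosa identity, was at 153, 144 and 141 CPM in the BPS flasks and 138, 144 and 140 CPM in the vehicle flasks. Inha, the inhibin alpha subunit, was at 1340 to 1419 CPM in BPS and 1254 to 1360 CPM in vehicle. Esr2, the beta estrogen receptor, was at 89.0 to 93.2 CPM in BPS and 84.6 to 95.5 CPM in vehicle. None of these 3 passed the test, and their ranges overlapped between the groups. Fshr, the receptor for follicle-stimulating hormone, whose protein was one of the purity markers of the study, was at 0.488 to 0.615 CPM in BPS and 0.324 to 0.584 CPM in vehicle, 100 reads in all 6 libraries. Amh, the hormone of growing preantral follicles, was equally low, at 0.779 to 0.846 CPM in BPS and 0.649 to 0.799 CPM in vehicle. In the Sertoli libraries Fshr averaged 3.94 CPM and Amh 6.29 CPM. Cyp19a1, aromatase, was also planned as a marker but had no entry among the deposited genes. Transcripts that stromal and contractile cells use were abundant, with Col1a1, a collagen chain, at 1305 to 1481 CPM in BPS and 1270 to 1342 CPM in vehicle. Pdgfra was at 113 to 131 CPM in BPS and 111 to 130 CPM in vehicle. Markers of endothelium summed to 25.6 to 30.5 CPM in BPS and 26.6 to 33.1 CPM in vehicle over 12 listed genes, and markers of immune cells to 23.4 to 30.2 CPM in BPS and 24.2 to 30.6 CPM in vehicle over 12 listed genes. The oocyte genes Zp1, Zp2, Zp3 and Gdf9 summed to 0.651 to 1.28 CPM in BPS, and to 1.178, 1.02 and 4.51 CPM in vehicle replicates 1, 2 and 3. In these bulk libraries, fewer cells of a type and less RNA per cell cannot be told apart.

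Exposure to BPS was accompanied by many small differences. Of 15712 genes tested, 409 (2.60%) were called at an adjusted p of 0.05 or less in limma, 306 (1.95%) of them higher and 103 (0.656%) lower in BPS. The median call was 1.12-fold the vehicle level among the higher genes and 0.859-fold among the lower. Of the calls, 31 changed by 1.5-fold or more, 9 of them higher and 22 lower. Before adjustment, p was under 0.05 for 2412 genes. The 19 calls of 2-fold or more were all lower in BPS, and 3 of them were protein-coding, namely Lars2 and the histone genes H3c7 and H4c11, the histones at under 1 CPM in every library. Called genes were well expressed, with a median of 92.6 CPM against 23.4 CPM over all genes tested. The groups did not overlap in 392 of the 409 calls, as they did not in 3131 (19.9%) of all genes tested.

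The excess of increases depended on scaling. As deposited, 74.8% of calls were higher in BPS. With the libraries rescaled by median ratios there were 199 higher and 157 lower calls, with upper quartiles 163 and 167, and with totals that leave out the rRNA-type transcripts 173 and 165. The median log2 fold change of all genes moved by little, being 0.02 as deposited and -0.00295 with upper quartiles. Against vehicle replicate 2 alone, 121 genes (0.770%) were called, of which 91 were among the 409. The direction was that of the full comparison in 406 of the 409 calls, which is no sign of stability, because vehicle replicate 2 took part in choosing them. For the same reason a call against vehicle replicate 2 alone is no separate support, and that lone flask has no spread of its own. Once the fit took in the share of rRNA-type reads, 60 genes (0.382%) were called, of which 56 were among the 409. Without vehicle replicate 3, 134 genes were called, and without BPS replicate 1 and BPS replicate 2 in turn, 167 and 232. In a fit of all 42 libraries 12 genes were called, and with no trend of variance on level 2 were, Sprr1a and Colq.

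**Figure D2:**
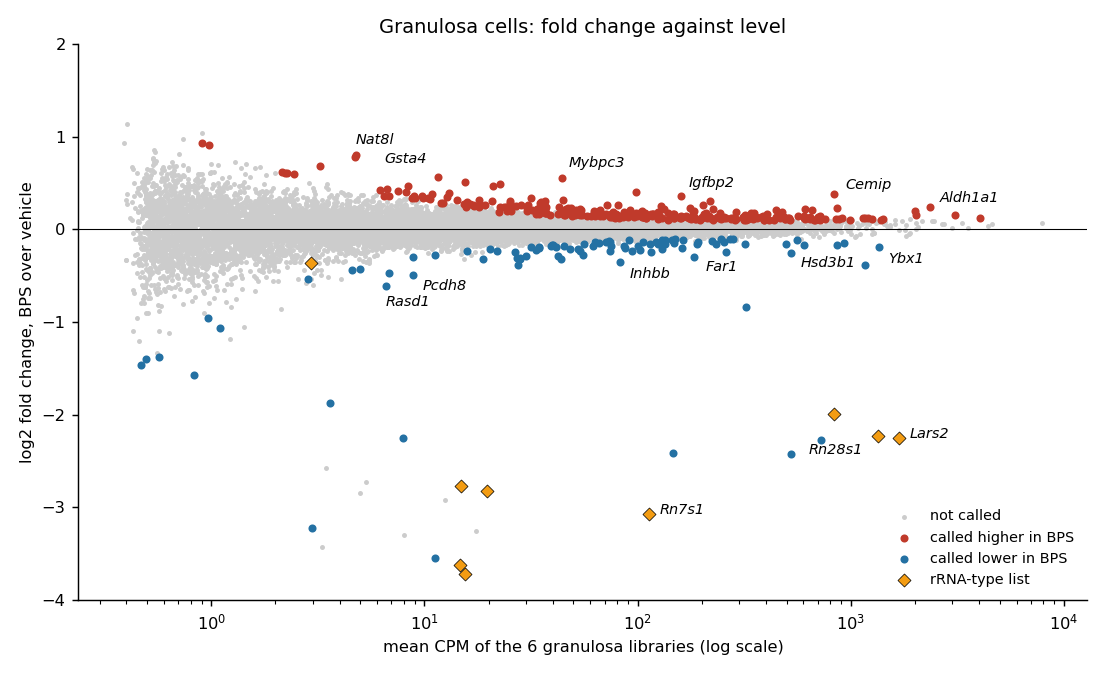
Log2 fold change of BPS over vehicle (vertical axis) against mean CPM (horizontal axis, log scale) for the 15712 genes tested, with the 306 genes called higher in red, the 103 called lower in blue and the rRNA-type list as diamonds. Most called genes lie close to 0, and the 19 decreases of 2-fold or more include rRNA-type and other noncoding RNAs and 3 protein-coding genes.

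The decreases in rRNA-type transcripts followed the 2 vehicle flasks with high rRNA-type shares. Of the 9 rRNA-type transcripts tested, 7 were called lower in BPS and none higher, with a median log2 fold change of -2.77, against 0.02 over all genes. Rn28s1, the 28S rRNA, was at 572, 314 and 193 CPM in BPS, against 2838, 337 and 3764 CPM in vehicle. Rn7s1, a signal recognition particle RNA, was at 24.6, 9.93 and 7.11 CPM in BPS, against 279, 10.7 and 349 CPM in vehicle. Rmrp, the RNA of the RNase MRP complex, was at 1.64, 0.814 and 0.592 CPM in BPS, against 36.7, 1.01 and 52.03 CPM in vehicle. For each of these RNAs vehicle replicate 2 lay within or near the BPS values, and the groups overlapped. Against vehicle replicate 2 alone the list had a median log2 fold change of -0.17 and no member was called. The libraries were made from poly(A)-selected RNA, and the part of rRNA carry-over in these values was not tested.

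Among protein-coding genes, the clearest increases were in genes of varied function. The smallest p of all genes belonged to Mybpc3 (chr2:91118114-91136516, GRCm38), which encodes a myosin-binding protein known from cardiac muscle. It was at 55.2, 51.2 and 50.8 CPM in BPS, against 36.2, 35.1 and 35.6 CPM in vehicle, a log2 fold change of 0.55 ± 0.041 (standard error, n = 3 each; adjusted p = 4.46e-07). Cemip (chr7:83932857-84086693), which takes part in the breakdown of hyaluronan, was at 918, 984 and 934 CPM in BPS, against 750, 689 and 742 CPM in vehicle (log2 fold change 0.38 ± 0.032, adjusted p = 1.33e-06). In both genes every BPS flask lay above every vehicle flask, and vehicle replicate 2 was no closer to the BPS flasks than the others. Igfbp2 (chr1:72824480-72852474), an insulin-like growth factor binding protein, was at 173, 182 and 187 CPM in BPS, against 139, 143 and 140 CPM in vehicle (log2 fold change 0.36, adjusted p = 1.33e-06). Sulf1, an extracellular sulfatase that edits heparan sulfate, was at 27.3, 27.7 and 24.2 CPM in BPS, against 19.4, 19.4 and 17.5 CPM in vehicle (log2 fold change 0.49, adjusted p = 0.000109). Sulf1 was also called in the fit of all 42 libraries, with an adjusted p of 0.00366, which held for 6 of the 409 calls. Mybpc3 was not called in that fit (adjusted p = 0.9996). Nt5e, the ecto-nucleotidase CD73, was at 20.49, 16.5 and 17.3 CPM in BPS, against 12.9, 13.8 and 11.4 CPM in vehicle. Cd24a, a small surface glycoprotein, was at 25.2, 23.0 and 25.0 CPM in BPS, against 17.99, 17.7 and 17.3 CPM in vehicle. Non-overlap of the groups was part of the rule that chose Mybpc3, Cemip, Sulf1, Nt5e and Cd24a. Igfbp2 was named after its values were seen, so for none of the 6 is the gap between groups separate support. Against vehicle replicate 2 alone the log2 fold change was 0.58 for Mybpc3, 0.44 for Sulf1, 0.46 for Cd24a and 0.39 for Nt5e. In the fit of all 42 libraries Nt5e was not called (adjusted p = 0.740).

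Nat8l, which makes N-acetylaspartate, showed one of the largest protein-coding increases, although it was named after its values were seen and at a mean level under 5 CPM. It was at 6.13, 6.22 and 5.83 CPM in BPS, against 3.83, 2.92 and 3.69 CPM in vehicle (log2 fold change 0.80 ± 0.12, adjusted p = 0.000777). Adh1, an alcohol dehydrogenase that oxidizes retinol, was at 105, 120 and 109 CPM in BPS, against 86.6, 86.0 and 80.5 CPM in vehicle. Aldh1a1, a retinaldehyde dehydrogenase and one of the abundant transcripts of these cells, was at 2530, 2572 and 2581 CPM in BPS, against 2247, 2148 and 2116 CPM in vehicle (log2 fold change 0.24 ± 0.027, adjusted p = 5.82e-05). Crabp2, a carrier of retinoic acid that was also named after its values were seen, was at 49.7, 50.2 and 46.4 CPM in BPS, against 58.3, 55.99 and 55.1 CPM in vehicle (log2 fold change -0.21, adjusted p = 0.00671). Dbp, a transcription factor that follows the circadian clock, was at 10.1, 9.44 and 9.60 CPM in BPS, against 7.39, 6.30 and 7.34 CPM in vehicle. It was the 1 called gene of 17 clock genes tested, against 2.60% of all genes. The other increases among the 15 largest, counted at a mean of 5 CPM or more with groups that did not overlap, were those of P2ry2, Steap4, Cox6a2, Cystm1, Ank, Crip2_1 and Pde2a, with log2 fold changes of 0.36 to 0.43. The suffix marks 1 of several entries that the table holds for Crip2.

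**Figure D3:**
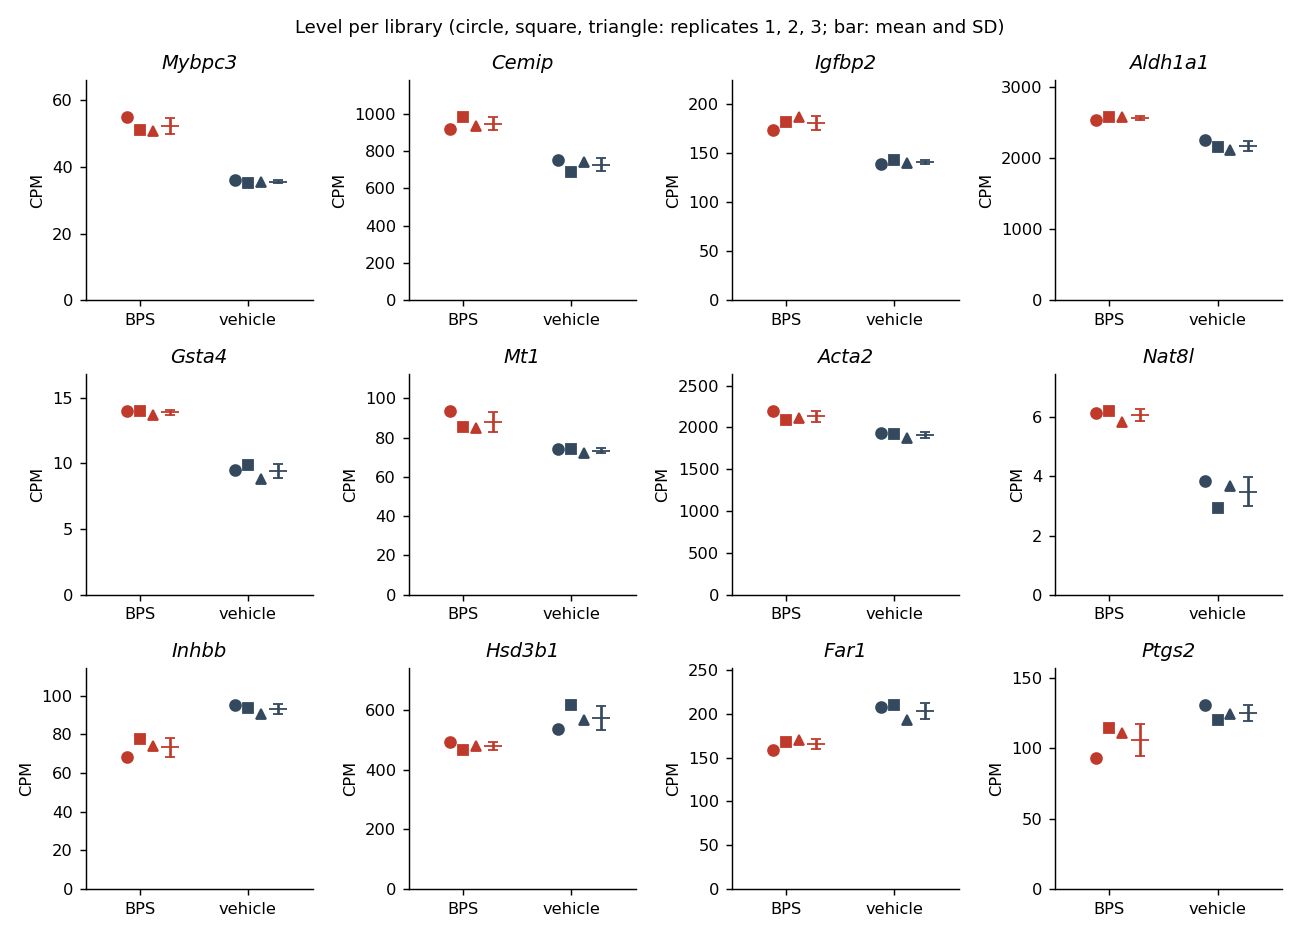
Level in CPM of 12 genes in each library, BPS on the left and vehicle on the right, with replicates 1, 2 and 3 as circle, square and triangle and the mean with its SD beside them; axes start at 0. In each of the 12 genes the 3 BPS flasks and the 3 vehicle flasks do not overlap, though most differences are a fraction of the level.

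Decreases included an inhibin and activin subunit, steroidogenic enzymes and genes that ovulation induces. Inhbb (chr1:119415463-119422248), the beta-B subunit of inhibin and activin, was at 68.1, 77.6 and 73.8 CPM in BPS, against 95.2, 93.7 and 90.3 CPM in vehicle (log2 fold change -0.35 ± 0.040, adjusted p = 6.76e-05). Hsd17b1, which forms estradiol from estrone, was at 128, 133 and 125 CPM in BPS, against 140, 138 and 140 CPM in vehicle (log2 fold change -0.12, adjusted p = 0.0363). Inhbb and Hsd17b1 were the 2 called of 23 granulosa identity genes tested, both lower, against 0.656% of all genes. The median log2 fold change of that list was 0.03. In BPS-exposed Sertoli cells Inhbb, Inha and Amhr2 were called lower. No member of the list had a called difference between the cell types. Inhbb was called against vehicle replicate 2 alone and Hsd17b1 was not (adjusted p = 0.41), and Inhbb was also the 1 call when vehicle replicate 3 was left out or the rRNA-type covariate was used. Inhba, the beta-A subunit, was at 979, 1085 and 1030 CPM in BPS, against 1121, 1039 and 1083 CPM in vehicle, with overlapping ranges. Hsd3b1 (chr3:98842356-98859794), a 3-beta-hydroxysteroid dehydrogenase of progesterone synthesis, was at 494, 467 and 481 CPM in BPS, against 535, 618 and 567 CPM in vehicle (log2 fold change -0.25 ± 0.037, adjusted p = 0.000882). It was the 1 called of 9 theca and steroidogenic genes tested, against 0.656% of all genes called lower. Cyp11a1, which starts steroid synthesis, was at 708, 689 and 687 CPM in BPS, against 628, 691 and 632 CPM in vehicle (adjusted p = 0.116), and Star, which delivers its cholesterol, was at 158 to 162 CPM in BPS and 151 to 157 CPM in vehicle (adjusted p = 0.398).

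Of 15 prostaglandin and ovulation genes tested, 4 were called lower and 1 higher, against 0.656% and 1.95% of all genes. Their median log2 fold change was -0.13. Ptgs2, the inducible cyclooxygenase, was at 93.3, 114 and 111 CPM in BPS, against 131, 120 and 124 CPM in vehicle. Ptger2, a prostaglandin E2 receptor, was at 17.3, 15.3 and 17.7 CPM in BPS, against 19.9, 21.5 and 21.6 CPM in vehicle. Ptx3, a pentraxin that stabilizes the cumulus matrix, was at 26.4, 21.6 and 28.1 CPM in BPS, against 30.7, 29.6 and 33.0 CPM in vehicle, and Runx2, a transcription factor induced at ovulation, at 31.5, 31.2 and 33.3 CPM in BPS, against 36.9, 35.0 and 38.5 CPM in vehicle. The higher call was Adamts1, a protease that cleaves versican. None of these 5 passed the test against vehicle replicate 2 alone. Ptges, the enzyme after Ptgs2 in prostaglandin E2 synthesis, went the other way, at 138, 140 and 140 CPM in BPS, against 119, 117 and 115 CPM in vehicle (log2 fold change 0.26 ± 0.028, adjusted p = 5.39e-05), and was called against vehicle replicate 2 alone as well. Ptges was named after its values were seen.

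Phosphodiesterases, a family that breaks down cyclic nucleotides, were singled out after their values were seen. Of 17 tested, 3 were called lower and 1 higher, against 0.656% and 1.95% of all genes. Their median log2 fold change was -0.0015. Pde3b was at 25.8, 24.3 and 24.9 CPM in BPS, against 29.1, 32.4 and 32.6 CPM in vehicle, Pde4b at 25.4 to 28.7 CPM in BPS and 31.7 to 34.4 CPM in vehicle, and Pde8a at 93.4 to 94.6 CPM in BPS and 103 to 110 CPM in vehicle. Pde2a was the higher one, at 6.84 to 7.55 CPM in BPS and 5.29 to 6.18 CPM in vehicle. Far1 (chr7:113513719-113571506), which makes fatty alcohols for ether lipids, was at 159, 168 and 170 CPM in BPS, against 207, 210 and 193 CPM in vehicle (log2 fold change -0.30 ± 0.034, adjusted p = 5.82e-05). Gja1, connexin 43 of the granulosa gap junctions, was at 837, 806 and 782 CPM in BPS, against 892, 945 and 892 CPM in vehicle (log2 fold change -0.17, adjusted p = 0.00339). Ybx1, an abundant RNA-binding protein, was at 1242 to 1284 CPM in BPS and 1401 to 1476 CPM in vehicle, and Sfrp4, a secreted WNT inhibitor, at 233 to 247 CPM in BPS and 275 to 292 CPM in vehicle. Spp1 (osteopontin), Itgb3 (an integrin), Fbln1 (fibulin), Slc7a8 (an amino acid transporter) and Pcdh8 (a protocadherin) were among the 15 largest decreases, with log2 fold changes of -0.32, -0.31, -0.29, -0.39 and -0.50. Sh3bgrl2 and Zbtb49 completed them, at -0.47 and -0.30. Far1, Pde3b, Pde4b, Gja1, Ybx1 and Sfrp4 were called against vehicle replicate 2 alone too.

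Part of the antioxidant and glutathione list, many of whose genes the transcription factor NRF2 controls, was higher in BPS. Of 20 tested, 10 were called higher and none lower, against 1.95% of all genes, and the median log2 fold change was 0.12. The 10 include Mt1 and Mt2, described below. This list, like every gene list here, was drawn up with earlier results of these data known, so its counts are no test of enrichment. Gsta4 (chr9:78191966-78209349), a glutathione transferase that clears products of lipid peroxidation, was at 14.0, 14.0 and 13.7 CPM in BPS, against 9.51, 9.90 and 8.81 CPM in vehicle (log2 fold change 0.56 ± 0.070, adjusted p = 0.000131). Gstm1 was at 685, 633 and 640 CPM in BPS, against 533, 581 and 572 CPM in vehicle (log2 fold change 0.22, adjusted p = 0.00126). Hmox1, heme oxygenase, was at 93.3, 95.1 and 94.3 CPM in BPS, against 86.2, 87.5 and 83.3 CPM in vehicle (log2 fold change 0.14, adjusted p = 0.0204). Gsta3, Gstm2, Gstp1, Me1 and Osgin1 had log2 fold changes of 0.27, 0.18, 0.14, 0.11 and 0.28. Nqo1, a frequently used NRF2 target, was at 7.69, 7.26 and 7.86 CPM in BPS, against 6.51, 7.23 and 5.43 CPM in vehicle, and did not pass the test (adjusted p = 0.211). The other uncalled members, Gclc, Gclm, Txnrd1, Srxn1, Slc7a11, Gsr, G6pdx, Cbr1 and Prdx1, had log2 fold changes from -0.033 to 0.070. Against vehicle replicate 2 alone the list's median was 0.08, and Gsta4, Gstm1 and Mt1 were called. With the upper quartile as scaling, 7 of the 10 remained called. Leaving out vehicle replicate 3 kept 5 of them, and the rRNA-type covariate kept Gsta4 and Mt1.

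The metallothioneins Mt1 and Mt2, small proteins that bind zinc and copper, rose together. Mt1 was at 93.7, 85.4 and 85.0 CPM in BPS, against 74.1, 74.04 and 72.2 CPM in vehicle (log2 fold change 0.26 ± 0.037, adjusted p = 0.00068). Mt2 was at 40.4, 38.7 and 37.8 CPM in BPS, against 30.9, 32.8 and 31.9 CPM in vehicle (log2 fold change 0.29 ± 0.044, adjusted p = 0.000975). They are neighbours on chromosome 8, and their promoters carry metal response elements, the sites of the zinc-sensing factor MTF1. The RefSeq windows from 250 bases before to 50 bases after the start site on GRCm38.p6, chr8:94178839-94179138 for Mt1 and chr8:94172368-94172667 for Mt2, both on the plus strand, are shown because these genes moved together. Capitals mark the core TGCACNC or TGCGCNC on either strand, 3 times in Mt1 and 4 times in Mt2.
Mt1: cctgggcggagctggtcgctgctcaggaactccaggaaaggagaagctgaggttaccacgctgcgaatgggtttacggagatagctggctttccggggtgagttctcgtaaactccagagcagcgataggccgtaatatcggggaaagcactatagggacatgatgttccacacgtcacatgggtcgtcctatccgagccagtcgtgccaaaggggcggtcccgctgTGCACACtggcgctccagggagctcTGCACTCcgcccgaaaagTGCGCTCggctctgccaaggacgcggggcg
Mt2: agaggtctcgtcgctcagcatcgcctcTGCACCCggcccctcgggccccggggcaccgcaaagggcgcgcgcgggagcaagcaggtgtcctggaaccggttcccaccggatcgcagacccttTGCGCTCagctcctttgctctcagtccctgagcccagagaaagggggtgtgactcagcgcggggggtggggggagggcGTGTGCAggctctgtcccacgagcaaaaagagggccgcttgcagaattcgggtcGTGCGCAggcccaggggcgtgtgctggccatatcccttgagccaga
The core was present in 25.7% of all 32851 promoter windows, 35.1% of the windows of genes tested and 24.9% of the 313 windows of genes called higher, so its presence alone sets no gene apart. The antioxidant response element core TGACNNNGC, searched on both strands, was found in 3 of the 10 windows of the called antioxidant genes, those of Mt2, Me1 and Gsta3, against 12.4% of all windows, 14% of the windows of genes tested and 15.02% of the windows of genes called higher. Those of Me1 (chr9:86695865-86696164, minus strand) and Gsta3 (chr1:21240335-21240634, plus strand) are given with the core in capitals, as examples of where the letters lie.
Me1: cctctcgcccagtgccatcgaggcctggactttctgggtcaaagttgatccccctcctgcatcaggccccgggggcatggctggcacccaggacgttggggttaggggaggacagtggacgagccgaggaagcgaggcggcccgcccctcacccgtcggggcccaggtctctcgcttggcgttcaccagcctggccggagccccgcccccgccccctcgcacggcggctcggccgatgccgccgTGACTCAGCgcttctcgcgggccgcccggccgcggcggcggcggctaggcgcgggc
Gsta3: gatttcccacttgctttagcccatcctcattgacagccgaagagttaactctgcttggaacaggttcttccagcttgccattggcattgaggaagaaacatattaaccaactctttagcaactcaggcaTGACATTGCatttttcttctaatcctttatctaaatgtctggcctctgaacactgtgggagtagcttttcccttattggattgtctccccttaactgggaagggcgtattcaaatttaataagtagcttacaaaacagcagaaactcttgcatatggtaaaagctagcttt

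A number of cytoskeletal genes rose by small amounts. Of 26 cytoskeleton and keratin genes tested, 13 were called higher and none lower, against 1.95% and 0.656% of all genes. All 26 had a positive log2 fold change, with a median of 0.10, against 0.02 over all genes. Actg1, cytoplasmic gamma actin, was at 3319, 3301 and 3159 CPM in BPS, against 3005, 2933 and 2852 CPM in vehicle (log2 fold change 0.15, adjusted p = 0.00562). Tubb2a, a beta tubulin, was at 148, 147 and 146 CPM in BPS, against 134, 131 and 125 CPM in vehicle (log2 fold change 0.18, adjusted p = 0.00288). Actn4, which crosslinks actin, was at 882 to 897 CPM in BPS and 812 to 833 CPM in vehicle, and Tuba1a, an alpha tubulin, at 936 to 959 CPM in BPS and 846 to 885 CPM in vehicle. The annexins Anxa1, Anxa2 and Anxa3 with S100a11, Lgals1, Gsn, Tpm2, Krt19 and Tubb6 were the other called members. With median ratios, upper quartiles and the total without rRNA-type transcripts, 8, 6 and 7 of the 26 were called higher and 24 were positive under each. Against vehicle replicate 2 alone 25 were positive, with a median of 0.11, and 4 were called. Leaving out vehicle replicate 3 kept 1 call, Tubb2a, and the rRNA-type covariate kept none.

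Of 14 smooth muscle and pericyte genes tested, 4 were called higher and none lower, against 1.95% and 0.656% of all genes. Their median log2 fold change was 0.09. Acta2, smooth muscle actin, was at 2199, 2084 and 2110 CPM in BPS, against 1937, 1919 and 1872 CPM in vehicle (log2 fold change 0.16 ± 0.027, adjusted p = 0.00292). Tagln (transgelin) was at 223 to 231 CPM in BPS and 201 to 209 CPM in vehicle, Myl9, a myosin light chain, at 391 to 414 CPM in BPS and 359 to 373 CPM in vehicle, and Actg2, an enteric actin, at 149 to 159 CPM in BPS and 139 to 145 CPM in vehicle. Myh11 and Cnn1, which mark mature smooth muscle, overlapped between the groups, Myh11 at 74.4 to 79.97 CPM in BPS and 72.02 to 80.2 CPM in vehicle, Cnn1 at 42.9 to 49.0 CPM in BPS and 42.6 to 47.3 CPM in vehicle. The whole list summed to 3228 to 3369 CPM in BPS and 2941 to 3008 CPM in vehicle. Against vehicle replicate 2 alone its median was 0.02 and none of the 14 was called, nor was any with the rRNA-type covariate. In the ovarian surface epithelium list 3 of 10 tested members were called higher, Aldh1a1, Krt19 and Upk3b, against 1.95% of all genes. The list summed to 2710 to 2748 CPM in BPS and 2266 to 2409 CPM in vehicle, mostly Aldh1a1. Only Aldh1a1 stayed called with upper quartiles, median ratios, the total without rRNA-type transcripts, or vehicle replicate 3 left out. Krt19 was at 18.8, 16.0 and 16.3 CPM in BPS, against 14.8, 13.6 and 14.1 CPM in vehicle, and Upk3b at 17.8, 16.0 and 17.3 CPM in BPS, against 13.6, 14.8 and 14.8 CPM in vehicle. Aldh1a1 was the 1 called of these 10 against vehicle replicate 2 alone. Whether the share of contractile or epithelial cells differed between the flasks was not tested.

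Serum response factor binds CArG boxes in promoters of many actin and contractile genes. Searched by that name on both strands, a CArG box was found in 1.63% of all promoter windows, 1.445% of the windows of genes tested and 2.24% of the windows of genes called higher. Called list genes with a box included the glutathione transferase gene Gstp1, as well as Myl9 (chr2:156775214-156775513, plus strand) and Actg1 (chr11:120348446-120348745, minus strand). Of 9 called cytoskeleton genes with a window, 1 held a box. The windows of Myl9 and Actg1 are printed here as examples, with the box in capitals.
Myl9: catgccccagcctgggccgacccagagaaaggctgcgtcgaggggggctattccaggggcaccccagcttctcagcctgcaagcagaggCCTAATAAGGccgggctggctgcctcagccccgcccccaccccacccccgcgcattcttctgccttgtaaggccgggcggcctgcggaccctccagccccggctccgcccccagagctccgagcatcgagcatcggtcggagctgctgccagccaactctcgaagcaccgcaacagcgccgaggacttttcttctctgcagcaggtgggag
Actg1: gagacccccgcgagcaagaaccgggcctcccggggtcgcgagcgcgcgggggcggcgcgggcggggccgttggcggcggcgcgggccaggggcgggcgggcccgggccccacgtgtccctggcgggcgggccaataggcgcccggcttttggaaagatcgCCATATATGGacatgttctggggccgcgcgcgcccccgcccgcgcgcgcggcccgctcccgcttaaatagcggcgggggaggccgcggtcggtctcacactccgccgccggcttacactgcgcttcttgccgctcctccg
The table held windows for 2 of the 4 called smooth muscle genes, and such a match is only a description of the letters.

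**Figure D4:**
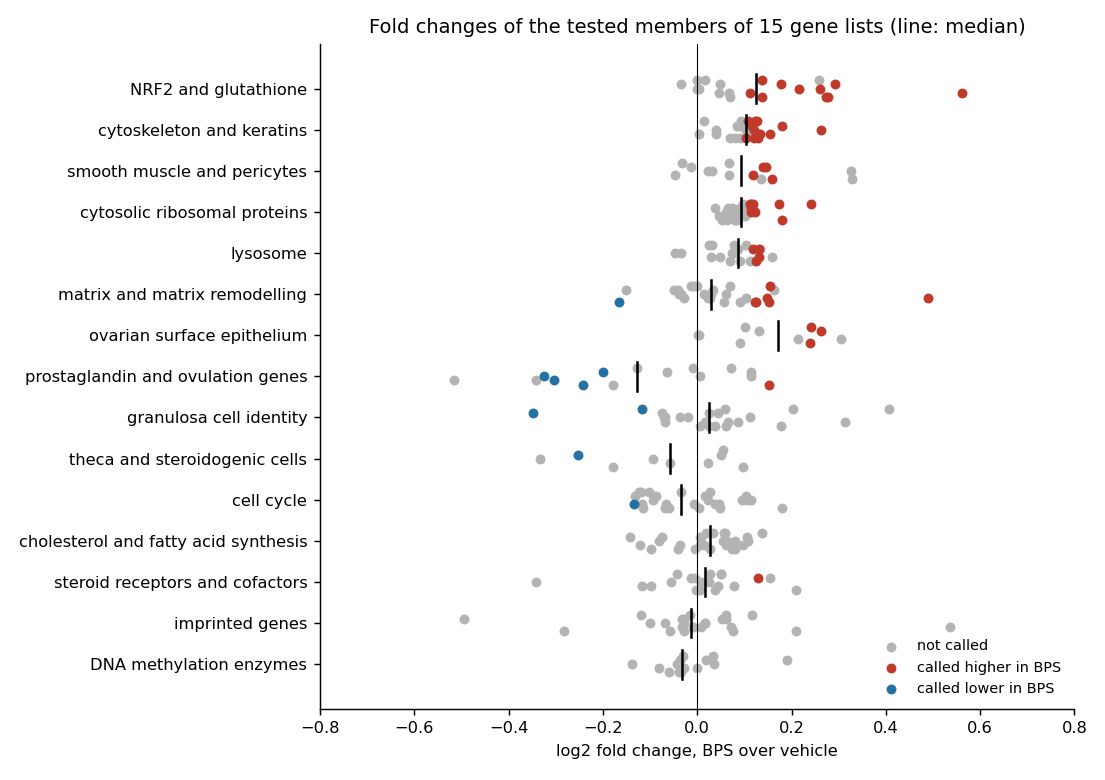
Log2 fold change of BPS over vehicle for every tested member of 15 gene lists, with called genes in red (higher) or blue (lower), uncalled genes in grey and the list median as a line. The antioxidant, cytoskeleton and ribosomal protein lists lie mostly right of 0, the ovulation list has 4 of its 5 calls left of it, and lists such as imprinted genes and DNA methylation enzymes hold no called gene.

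Of 30 ribosomal protein genes tested, 9 were called higher, by small amounts, against 1.95% of all genes. All 30 had a positive log2 fold change with a median of 0.09, and the calls included Rpl10 (363 to 384 CPM in BPS and 323 to 337 CPM in vehicle), Rpl37 (92.5 to 100 CPM in BPS and 83.7 to 85.9 CPM in vehicle) and Rps18. Their groups did not overlap in 26 of 30 genes, against 19.9% of all tested. With median ratios 7, and with the upper quartile 4, of the 30 were called, and all 30 stayed positive under both. Rpl10 was the 1 member called against vehicle replicate 2 alone, 2 members were called when vehicle replicate 3 was left out, and none was called with the rRNA-type covariate. Many of these genes, like Gapdh, the actins and the tubulins, have near-identical processed copies in the genome with which reads may be shared. Of 22 oxidative phosphorylation genes, 22 were positive and 1, Atp5e, was called higher. Of 25 glycolysis and hypoxia genes 23 were positive and 4, Gapdh, Aldoa, Gpi1 and Adm, were called higher, against 1.95% of all genes. The medians of these 2 lists were 0.046 and 0.060, against 0.02 over all genes. With upper quartiles 16 of the 22 and 20 of the 25 were positive, and 1 and 3 were called higher. Neither list held a call against vehicle replicate 2 alone or with the rRNA-type covariate.

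Lysosomal and matrix genes contributed further increases. Of 21 lysosome genes tested, Lamp1, Ctsa, Ctsd and Hexa were called higher and none lower, against 1.95% and 0.656% of all genes. The list's median was 0.09. None of the 21 was called against vehicle replicate 2 alone or with the rRNA-type covariate, and 2, Lamp1 and Ctsd, were without vehicle replicate 3. Ctsd, cathepsin D, was at 648, 623 and 635 CPM in BPS, against 580, 587 and 582 CPM in vehicle (log2 fold change 0.12, adjusted p = 0.00862). Of 28 matrix genes tested, 6 were called higher (Sparc, Nid2, Timp2, Timp3, Adamts1 and Sulf1), against 1.95% of all genes. Lama1, a laminin chain of basement membranes, was called lower, at 562, 582 and 557 CPM in BPS, against 644, 617 and 649 CPM in vehicle. The calls in this list against vehicle replicate 2 alone were Sulf1, higher, and Thbs2, lower. Sparc, a collagen-binding glycoprotein, was at 4165 to 4236 CPM in BPS and 3853 to 3879 CPM in vehicle. Ccn2 and Ccn1, matricellular proteins and targets of the YAP coactivator, were the 2 called of 15 YAP and TEAD targets. Both were higher, against 1.95% of all genes. Ccn2 was at 704, 716 and 704 CPM in BPS, against 628, 606 and 608 CPM in vehicle (log2 fold change 0.21, adjusted p = 8.91e-05). Tgm2, a transglutaminase named after its values were seen, was at 181 to 196 CPM in BPS and 161 to 164 CPM in vehicle. Among stress genes, Atf5 and Asns were the 2 called of 21 integrated stress response genes, both higher. Hspb1 was the 1 of 23 chaperone and unfolded protein genes, also higher. The share called higher over all genes was 1.95%. Cdkn1a, an inhibitor of the cell cycle, was at 267 to 280 CPM in BPS and 244 to 253 CPM in vehicle. It was the 1 called of 22 cyclin D, CDK inhibitor and p53 target genes, against 1.95% of all genes called higher. With upper quartiles, median ratios or the total without rRNA-type transcripts, Ccn2, Atf5 and Hspb1 stayed called, and Ccn1, Asns and Cdkn1a did not. Of these stress and cell cycle genes and the 2 YAP targets, Ccn2, Atf5 and Hspb1 were called against vehicle replicate 2 alone, and Ccn1, Asns and Cdkn1a were not.

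Receptors for steroid and related hormones differed little. Of 20 receptor and cofactor genes tested, 1 was called higher and none lower, against 1.95% and 0.656% of all genes. This was Thra, a thyroid hormone receptor, at 114, 108 and 109 CPM in BPS, against 100, 97.6 and 105 CPM in vehicle (log2 fold change 0.13, adjusted p = 0.0449). It was not called with upper quartiles (adjusted p = 0.133), median ratios or the total without rRNA-type transcripts, nor against vehicle replicate 2 alone. Nrip1, a cofactor also on the estrogen response list, was not called as deposited (log2 fold change -0.12, adjusted p = 0.0953). Under each of those rescalings Nrip1 was called lower. Esr1, the alpha estrogen receptor, was at 25.2, 24.4 and 22.3 CPM in BPS, against 25.4, 26.2 and 25.3 CPM in vehicle (adjusted p = 0.389). Pgr, the progesterone receptor, was at 5.56, 4.004 and 5.02 CPM in BPS, against 5.48, 7.23 and 5.77 CPM in vehicle (adjusted p = 0.186). Of 20 estrogen response genes tested, 2 were called higher and 2 lower, against 1.95% and 0.656% of all genes. Their median log2 fold change was 0.01. With upper quartiles, median ratios or the total without rRNA-type transcripts, 2 were called higher and 3 lower. Cxcl12, a chemokine that estrogens induce in breast cancer cells, was at 244, 229 and 257 CPM in BPS, against 194, 199 and 196 CPM in vehicle (log2 fold change 0.31 ± 0.033, adjusted p = 4.27e-05). The other higher call was Ctsd. Rasd1, a small G protein that glucocorticoids induce, was at 6.59, 4.23 and 4.90 CPM in BPS, against 6.92, 9.25 and 7.65 CPM in vehicle, the largest of the 15 decreases named by size (log2 fold change -0.61 ± 0.13, adjusted p = 0.0169). Sgk1, a kinase also induced by steroids, was at 51.2, 50.7 and 48.5 CPM in BPS, against 57.6, 66.996 and 58.1 CPM in vehicle (log2 fold change -0.28, adjusted p = 0.00339). Cxcl12, Rasd1 and Sgk1 were called against vehicle replicate 2 alone, and Ctsd was not.

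Other lists that bear on the study's questions held few calls, where 1.95% of all genes were called higher and 0.656% lower. None of 5 aryl hydrocarbon receptor targets passed the test. Cyp1b1, a cytochrome P450 induced through that receptor, was at 107 to 120 CPM in BPS and 103 to 108 CPM in vehicle, with overlapping ranges. None of the 5 G-protein coupled receptors tested was called: Gprc5b was at 76.7 to 83.2 CPM in BPS and 75.7 to 79.4 CPM in vehicle, and Gprc5a at 1.36 to 1.53 CPM in BPS and 1.54 to 1.67 CPM in vehicle. Of 18 PI3K and AKT genes, Pik3r1, a regulatory subunit, was called higher, at 212, 187 and 184 CPM in BPS, against 159, 181 and 171 CPM in vehicle, with vehicle replicate 2 close to BPS replicate 3, and was not called against vehicle replicate 2 alone. No gene was called among 14 DNA methylation enzymes, with log2 fold changes from -0.14 to 0.19, among 24 imprinted genes, or among 27 cholesterol and fatty acid synthesis genes. Dnmt1, the maintenance methyltransferase, was at 153 to 168 CPM in BPS and 162 to 168 CPM in vehicle.

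Sertoli cells, the testicular counterpart of granulosa cells, were exposed in the same way, and 820 of 15648 genes (5.24%) were called in them, 588 (3.76%) of them higher. Of the 409 granulosa calls, 61 were called in Sertoli cells too, which is 14.9% of the granulosa calls and 7.44% of the Sertoli calls, and 48 of the 61 had the same direction. In a joint fit of the 12 libraries the response differed between the cell types for 215 of 16791 genes (1.28%), being higher in granulosa cells for 123 (0.733%) and lower for 92 (0.548%). The difference was clearest as a group for genes of the cell cycle. In granulosa cells 1 of 27 was called, against 2.60% of all genes. This was Mki67, the proliferation antigen, at 239, 254 and 233 CPM in BPS, against 270, 268 and 259 CPM in vehicle (log2 fold change -0.13, adjusted p = 0.0223). In Sertoli cells 19 of the same 27 were called higher. The difference between the responses was called for 12 of the 27, all of them lower in granulosa cells. Cdk1, the mitotic kinase, had a log2 fold change of -0.07 in granulosa cells and 0.29 in Sertoli cells (difference -0.36 ± 0.057, adjusted p = 0.00419), and Ccna2, cyclin A2, had -0.10 in granulosa cells and 0.26 in Sertoli cells (difference -0.36 ± 0.050, adjusted p = 0.0014).

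For some antioxidant and lysosomal genes the difference ran the other way. Of the 20 antioxidant genes, none was called in Sertoli cells, and the response differed for Gsta4, Mt1, Mt2 and Hmox1, each higher in granulosa cells. Mt2 had a log2 fold change of 0.29 in granulosa cells and -0.05 in Sertoli cells (difference 0.34 ± 0.057, adjusted p = 0.00506). The 4 lysosomal calls, Lamp1, Ctsa, Ctsd and Hexa, all differed, and none of the 21 lysosome genes was called in Sertoli cells. With the rRNA-type covariate none of the 21 was called in granulosa cells either, and the joint fit was not run with that covariate. Sulf1 changed in opposite directions, with a log2 fold change of 0.49 in granulosa cells and -0.17 in Sertoli cells (Sertoli adjusted p = 0.0085; difference 0.66 ± 0.068, adjusted p = 0.000199). For ribosomal proteins and the cytoskeleton no member had a called difference between the cell types. In Sertoli cells 23 of 30 ribosomal protein genes and 12 of the 25 cytoskeleton genes tested there were called higher. The ribosomal difference, granulosa minus Sertoli, was positive for 4 of 30 genes, with a median of -0.091. For the cytoskeleton it was positive for 10 of 26 genes, with a median of -0.0081.

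**Figure D5:**
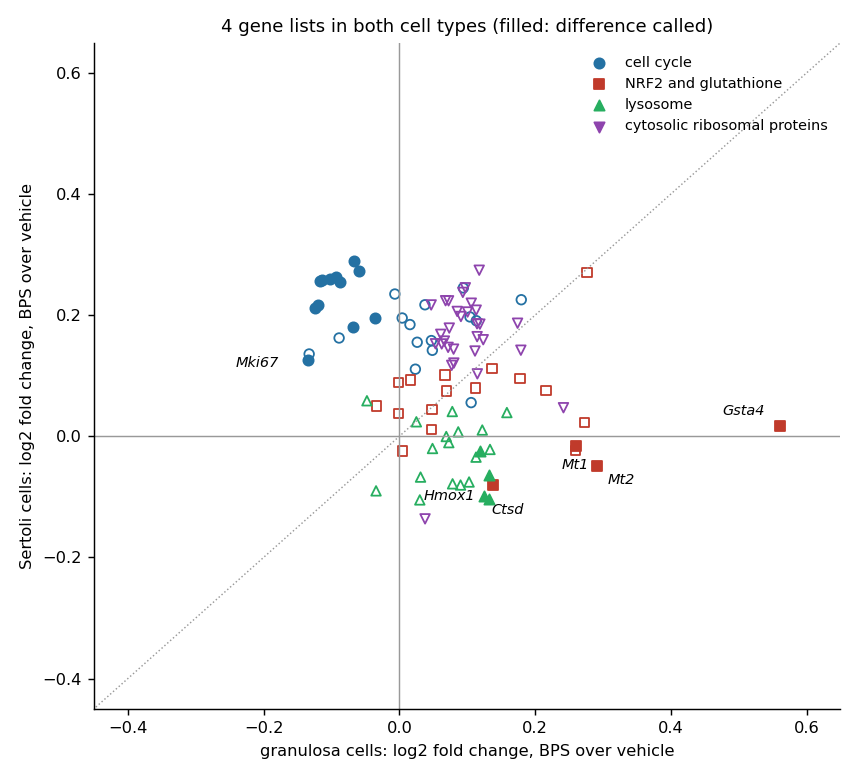
Log2 fold change of BPS over vehicle in granulosa cells (horizontal axis) and in Sertoli cells (vertical axis) for the tested genes of 4 lists; filled symbols are genes whose responses differed in the joint fit, and the dotted line marks equal responses. All cell cycle genes but 1 lie above the line, the filled antioxidant and lysosomal genes lie below it, and ribosomal proteins are positive in both cell types but for 1 in Sertoli cells.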

How the data were processed

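The authors aligned paired 50-base reads of poly(A)-selected, strand-specific libraries to mm10 with Rsubread and normalized with edgeR's TMM. For the strand setting of the counting, the sources used here give nothing. The deposited table held log2 CPM values (read counts scaled to a fixed library total) for 22186 genes in 42 libraries, scaled by the authors over all of them, after 0.0313 CPM was added to each value. At least 99.9% of values in each granulosa library came out as whole reads (tolerance 0.05 reads), 29354492 to 39955477 reads per library with scaling factors of 0.976 to 1.00. Reads this deep leave counting error small for most genes, and the number of flasks limits precision.

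The main test was limma (3.58.1, R 4.3.3) with a mean-variance trend on the log2 values of the 6 libraries, for genes that reached 0.5 CPM in 3 or more of them, with p-values adjusted by the Benjamini-Hochberg method over all genes tested and called at 0.05 or less. The prior had 15.4 and the residuals 4 degrees of freedom. The difference from Sertoli cells was tested as an interaction in 12 libraries. The step was tested on simulated data. Tools that need deposited counts were not run, since the deposited unit was log2, and limma-voom on the recovered reads was an alternative. An exact permutation test of 3 against 3 libraries cannot go below p = 0.1.

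The gene lists and members were chosen with earlier results of these data known. Named genes were the 15 largest increases and 15 largest decreases among calls that averaged 5 CPM or more and whose groups did not overlap, up to 4 members of each list with the smallest p, cell type markers, steroid receptors and the study's G-protein coupled receptors. Igfbp2, Jam2, Nat8l, Ptges, Crabp2, Gja1, Ybx1, Sfrp4, Pde8a, Tgm2, the single rRNA-type transcripts and further called members of lists fell outside that rule and were named after their values were seen. The comparison without vehicle replicates 1 and 3 was added after seeing the data. Alternatives covered the added value, filter, scaling, replicate block, rRNA-type share, libraries in the fit, test, trend and each library left out. Promoter windows are from RefSeq (GRCm38.p6), which held windows for 66 of 88 called list genes. The list of replication-dependent histones is not reported, since its older symbols matched few genes. The table gives 1222 entries with a suffix for symbols listed more than once. The replicate numbers of the flasks did not pair them, as same-numbered BPS and vehicle libraries had deviations correlated at 0.050, 0.00027 and -0.073.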

Additional observations from a re-analysis of the deposited data

Results flagged for a closer look

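For 27 of the called genes named, the log2 fold change of BPS over vehicle differed between granulosa and Sertoli cells in the joint fit. The values below are granulosa minus Sertoli. Among the genes higher in granulosa BPS flasks the difference was 1.05 for Nat8l, 0.88 for Mybpc3, 0.66 for Sulf1, 0.64 for Cd24a, 0.63 for Cemip, 0.62 for Dbp, 0.54 for Gsta4 and 0.50 for Nt5e. It was 0.44 for P2ry2, 0.39 for Igfbp2, 0.38 for Cystm1 and 0.35 for Jam2, a junctional adhesion molecule named after its values were seen. Among metal-binding, antioxidant and lysosomal genes it was 0.34 for Mt2, 0.28 for Mt1, 0.22 for Hmox1, 0.23 for Ctsa, 0.22 for Ctsd, 0.20 for Hexa and 0.14 for Lamp1. It was 0.22 for Myl9 and 0.22 for Tgm2. Among the genes lower in granulosa BPS flasks it was -0.41 for Sgk1, -0.34 for Ybx1, -0.34 for Far1, -0.33 for Spp1, -0.32 for Sfrp4 and -0.26 for Mki67. No difference of this kind was called with no mean-variance trend.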

How the results depend on the processing

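The number of calls depended on how the variance was estimated and on single libraries, and the cause was not tested. With an added CPM of 0.25, 1 or 4, no filter, a CPM of at least 5, or limma-voom, 315 to 452 genes were called. Rescaling gave 356 calls with median ratios, 330 with upper quartiles and 338 with totals without rRNA-type transcripts, of which 299, 263 and 273 were among the 409. It moved the split to 199 higher and 157 lower with median ratios, 163 and 167 with upper quartiles, and 173 and 165 with those totals. The rRNA-type share as a covariate left 60 calls (40 higher, 20 lower), the fit of all 42 libraries 12 (10 higher, 2 lower), and no mean-variance trend 2 (2 higher, 0 lower), with 1934 genes at an unadjusted p under 0.05. Without both vehicle libraries of high rRNA-type share, 121 were called (76 higher, 45 lower), with the lone vehicle library assumed to vary like the BPS libraries. Leaving out 1 library gave 134 to 402 calls, 99 to 321 higher and 35 to 103 lower, lowest without vehicle replicate 3. With the replicate number as a block, 283 genes were called, 211 higher and 72 lower, and since the numbers do not pair the flasks this is given once. The difference from Sertoli cells was called for 54 genes in the fit of all 42 libraries, 0 with no trend, 95 to 324 when 1 library was left out, 221 with the replicate block, and 164 to 258 under the other alternatives.

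Of 107 called genes named, 56 stayed called without vehicle replicate 3 and 44 without both vehicle libraries of high rRNA-type share. The direction turned for 4 rRNA-type transcripts with the covariate, to 0.17 for Rn28s1, 0.37 for Rn7s1, 0.011 for Rmrp and 0.032 for mt-Rnr1, and for Rn7s1 (0.16) and mt-Rnr1 (0.017) without both vehicle libraries.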
